A study of Mus musculus with 2 samples.

Results

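The core genes of transforming growth factor beta (TGF-beta) signaling were examined in livers of mice fed a high-fat diet (HFD) and infused with an adeno-associated virus (AAV) for *Wee1-AS* or for GFP. The 10 genes comprise the ligands *Tgfb1*, *Tgfb2* and *Tgfb3*, the receptors *Tgfbr1*, *Tgfbr2* and *Tgfbr3*, the signal transducers *Smad2*, *Smad3* and *Smad4*, and the inhibitor *Smad7*. They were found by their symbol among 45777 genes, and they account for 30 of 129299 transcripts in the table. Liver poly-A RNA was sequenced from C57BL/6 N mice that were 7 weeks old when a HFD of 18 weeks began. In week 13, 5 weeks before the end, the mice were infused retro-orbitally with AAV-GFP, the control, or with AAV-*Wee1-AS*, which delivers the long noncoding RNA *Wee1-AS*. The AAV-*Wee1-AS* vector was of the AAV9 serotype with a CMV promoter, which is not specific to hepatocytes. One library per group (2 in all) was analysed here, although the design text mentions 4 samples, the sources used here do not state the sex of these mice, and no source speaks of pooled mice. All values below therefore compare one library with the other, no spread between mice could be estimated, no test was run and no P value is given.

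TGF-beta ligands are secreted in a latent form and act once they are released from their latency proteins. The active ligand binds the type II receptor TGFBR2, which phosphorylates the type I receptor TGFBR1 (ALK5). TGFBR1 in turn phosphorylates SMAD2 and SMAD3, which enter the nucleus with SMAD4, while SMAD7 blocks the type I receptor and is itself induced by the pathway. Betaglycan, encoded by *Tgfbr3*, presents ligand to the signaling receptors. In the liver, TGF-beta is best known for activating hepatic stellate cells and driving the deposition of extracellular matrix.

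The members differed widely in base composition, and their sequences are shown for that reason. The promoters of *Tgfb1* and *Tgfbr1*, whose ratios between the libraries lay on opposite sides, are given from 250 bases before to 50 bases after the annotated start (RefSeq, build GRCm38.p6). Capitals mark matches to the GC box GGGCGG or to the SMAD-binding element CAGACA, searched on both strands.
Tgfb1, chr7:25686752-25687051, plus strand: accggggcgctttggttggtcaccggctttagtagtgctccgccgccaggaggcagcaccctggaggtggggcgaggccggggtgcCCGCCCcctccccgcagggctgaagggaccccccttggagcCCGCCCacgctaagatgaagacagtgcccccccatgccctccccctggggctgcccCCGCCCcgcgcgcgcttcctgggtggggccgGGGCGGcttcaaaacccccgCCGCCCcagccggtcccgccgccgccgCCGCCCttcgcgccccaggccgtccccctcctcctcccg
Tgfbr1, chr4:47352972-47353271, plus strand: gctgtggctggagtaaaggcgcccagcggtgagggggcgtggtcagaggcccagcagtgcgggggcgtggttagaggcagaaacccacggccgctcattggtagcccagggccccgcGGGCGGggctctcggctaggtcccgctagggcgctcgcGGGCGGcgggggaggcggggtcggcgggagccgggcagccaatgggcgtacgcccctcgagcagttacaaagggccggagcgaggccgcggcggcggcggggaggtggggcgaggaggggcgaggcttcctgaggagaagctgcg
Tgfbr1, internal start, chr4:47385966-47386265, plus strand: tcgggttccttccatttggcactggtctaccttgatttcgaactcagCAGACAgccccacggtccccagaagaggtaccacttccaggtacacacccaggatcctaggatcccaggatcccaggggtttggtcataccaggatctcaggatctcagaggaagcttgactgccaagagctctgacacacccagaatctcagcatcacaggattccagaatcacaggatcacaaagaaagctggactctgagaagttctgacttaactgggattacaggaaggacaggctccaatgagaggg
The *Tgfb1* window had a GC content of 77.0% and held 6 GC boxes and no CAGACA. The window at the first start of *Tgfbr1* had a GC content of 74.7% with 2 GC boxes, so the promoters of the ligand and the receptor were alike in composition. The window at the internal start of *Tgfbr1* had a GC content of 52.0% and held 1 CAGACA. Among 32851 promoters of the same length, the median GC content was 52.7%. A GC box was present in 35.7% of them, CAGACA in 21.0% and the TATA box TATAAA in 13.6%. In the windows shown, no match overlapped another and TATAAA was absent. Promoters of 5 members were matched, of which 3 are not shown. The *Smad3* window had a GC content of 67.7% with 2 GC boxes, the *Tgfb2* window had 54.3% with 1 CAGACA and 1 TATAAA, and the *Tgfbr2* window had 59.0% with none of these strings. A match describes letters only, and binding was not measured.

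The transcripts of the members ranged in GC content from 41.0% (*Tgfbr1*) to 62.5% (*Tgfb1*). The ligands show how far close paralogs can diverge in base composition. The last 90 coding bases before the stop codon, part of the mature cytokine, are given for each ligand (GENCODE, build GRCm38), with capitals at positions that are not identical in all 3.
Tgfb1, chr7:25704850-25704939, plus strand: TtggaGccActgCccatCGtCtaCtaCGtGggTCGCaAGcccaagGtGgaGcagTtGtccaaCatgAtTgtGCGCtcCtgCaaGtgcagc
Tgfb2, chr1:186625451-186625540, minus strand: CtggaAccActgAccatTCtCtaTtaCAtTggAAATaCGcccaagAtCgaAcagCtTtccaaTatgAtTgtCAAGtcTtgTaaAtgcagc
Tgfb3, chr12:86057783-86057872, minus strand: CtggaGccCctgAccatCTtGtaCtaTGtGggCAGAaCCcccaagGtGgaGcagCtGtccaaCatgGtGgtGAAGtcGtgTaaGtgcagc
All 3 ligands had the same base at 58 of the 90 positions. *Tgfb1* and *Tgfb3* shared 71 bases (78.9%), *Tgfb2* and *Tgfb3* shared 67 (74.4%), and *Tgfb1* and *Tgfb2* shared 64 (71.1%). Of the 32 positions that differed, 20 fell on the third base of a codon. G or C stood at the third base in 27 of 30 codons of *Tgfb1* and of *Tgfb3*, but in 16 of 30 codons of *Tgfb2*. The GC content of the stretch was 57.8% in *Tgfb1*, 56.7% in *Tgfb3* and 41.1% in *Tgfb2*.

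The AAV-GFP library held 55466182 estimated counts and the AAV-*Wee1-AS* library 48079335. Of all genes, 15857 had at least 10 counts in at least 1 library and were kept, among them all 10 members, each of which reached 10 counts in both libraries. Log2 ratios of AAV-*Wee1-AS* over AAV-GFP were computed from counts scaled by TMM (trimmed mean of M values), with a counting interval (exact, 95%) that covers counting error only and treats PCR copies as molecules. A ratio above 2 or below 0.5 is called past 2-fold. Levels are given in TPM, a unit per transcript length with an equal sum in each library. Across all genes kept, the median log2 ratio was -0.02, and the ratio had a Spearman coefficient with transcript GC content of -0.69. When the genes were divided into 10 groups of equal size by GC content, the median log2 ratio ran from 1.51 in the lowest group (31.2% to 42.0%) to -0.70 in the highest (58.0% to 72.8%). Values with the trends in GC content and transcript length removed are therefore given for the members, for the medians of the gene lists and for part of the other genes named, as the trend-removed log2 ratio. The design cannot tell this trend apart from an effect of the vector, and its part in the members' ratios was not tested.

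*Tgfb1* and *Tgfb3* were lower in the AAV-*Wee1-AS* library and past 2-fold, *Tgfbr1* was higher and past 2-fold, and the other 7 members were not past 2-fold. Of all genes kept, 31.0% were past 2-fold (4908 genes), 22.2% above 2 and 8.71% below 0.5. Among the members, 3 of 10 were past 2-fold, 1 above 2 and 2 below 0.5, a share close to that of all genes. The median log2 ratio of the members was 0.04, against -0.02 over all genes. Only for *Tgfbr1* did the whole counting interval lie past 2-fold, as it did above 2 for 16.0% and below 0.5 for 3.72% of all genes. The interval lay above a log2 ratio of 0 for 4 members (*Tgfbr1*, *Tgfbr3*, *Smad2* and *Smad4*), below it for 3 (*Tgfb1*, *Tgfb3* and *Smad7*) and on both sides for 3 (*Tgfb2*, *Tgfbr2* and *Smad3*). The share of all genes with an interval clear of 0 is not given here, so these counts only describe the members. After removal of the trends, 6.64% of genes were above 2 and 8.11% below 0.5. Among the members, 1 was above (*Tgfbr1*) and 2 were below (*Tgfb2* and *Tgfb3*). *Tgfb2* had only 23 and 13 counts, and its interval before removal held a log2 ratio of 0.

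**Figure D1:**
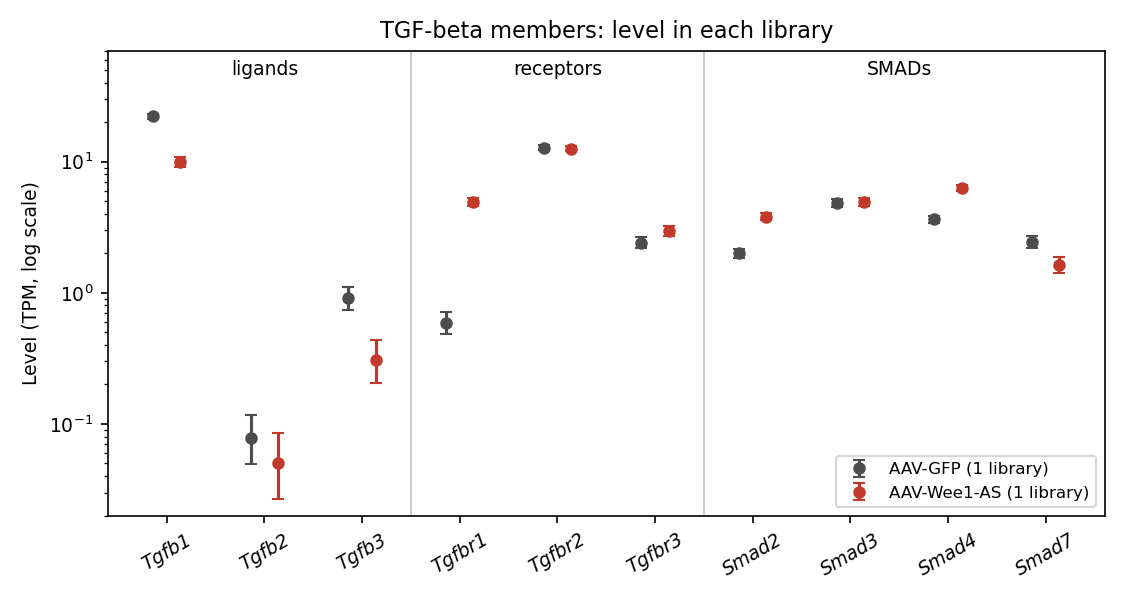
Level of each member in TPM on a log axis, 1 point per library (grey, AAV-GFP; red, AAV-*Wee1-AS*), with bars for the exact 95% counting interval. *Tgfb1* moved from 22.1 to 9.93 TPM and *Tgfbr1* from 0.590 to 4.93 TPM, while *Tgfbr2* stayed between 12.6 and 12.8 TPM.

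Among the ligands, *Tgfb1* (Gene ID 21803, chr7:25687002-25705077), the main isoform of injured liver, was by far the most abundant. It had 1584 counts with AAV-GFP and 603 with AAV-*Wee1-AS*, or 22.1 and 9.93 TPM. The counting intervals of the levels did not overlap, and *Tgfb1* was 2.18-fold lower in the AAV-*Wee1-AS* library, with a log2 ratio of -1.13 (-1.27 to -0.99). Its transcript had the highest GC content of the members, and its trend-removed log2 ratio was -0.36, which is not past 2-fold.

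*Tgfb3* (Gene ID 21809, chr12:86056743-86079041), the isoform linked to palate fusion and to wound repair, had 102 counts with AAV-GFP and 29 with AAV-*Wee1-AS*. Its level was 0.911 and 0.305 TPM. *Tgfb3* was 2.82-fold lower, with a log2 ratio of -1.49 (-2.20 to -0.94), the lowest of the members, and its trend-removed log2 ratio of -1.19 was also past 2-fold. With a pseudocount of 1 on the low TPM and FPKM values, *Tgfb3* was not past 2-fold (-0.55 and -0.35). The GC content of its transcript was 53.0%.

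*Tgfb2* (Gene ID 21808, chr1:186622787-186709697), an isoform with roles in heart and eye development, was barely detected. It had 23 counts with AAV-GFP and 13 with AAV-*Wee1-AS*, or 0.0776 and 0.0501 TPM. The log2 ratio was -0.50 with an interval of -1.66 to 0.48, so no difference was detectable at this depth. Genes of its GC content (46.9%) and length had a trend of 0.75, and the trend-removed log2 ratio was -1.25. That GC content and length came from a GENCODE transcript of 5116 bases, while all counts lay on XM_006497136, of 8798 bases. With so few counts, the trend-removed value does not show that *Tgfb2* was lower.

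Summed over the 3 ligands, the level was 23.1 TPM in the AAV-GFP library and 10.3 TPM in the AAV-*Wee1-AS* library. *Tgfb1* made up 95.7% and 96.5% of these sums, so the sum followed *Tgfb1* alone. These are uncorrected levels, and the trend-removed log2 ratio of *Tgfb1* was -0.36, which is not past 2-fold. All 3 ligands had a log2 ratio below 0, and this held after removal of the trends.

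**Figure D2:**
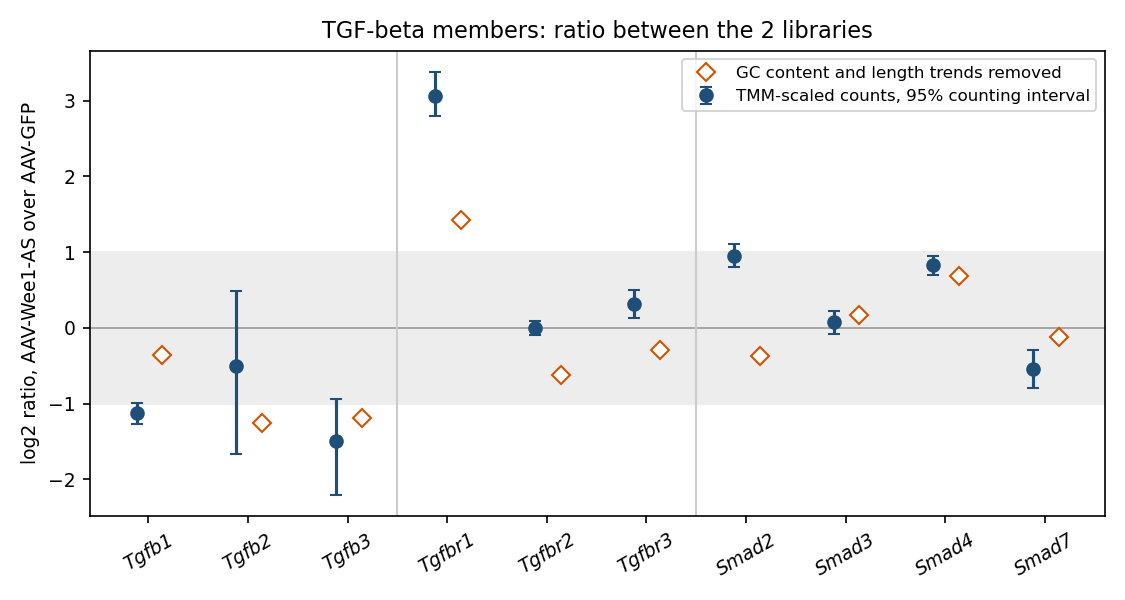
Log2 ratio of AAV-*Wee1-AS* over AAV-GFP for each member from TMM-scaled counts (filled circles, bars for the exact 95% counting interval) and after removal of the trends in GC content and length (open diamonds), with the range within 2-fold shaded. *Tgfbr1* lies above the shaded range in both (3.06 and 1.42) and *Tgfb3* below it in both (-1.49 and -1.19), while *Tgfb1* lies below it only before removal.

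Among the receptors, *Tgfbr1* (Gene ID 21812, chr4:47353222-47414926), the type I receptor kinase, had 112 counts with AAV-GFP and 790 with AAV-*Wee1-AS*. Its level was 0.590 and 4.93 TPM. *Tgfbr1* was 8.33-fold higher (6.94 to 10.4), with a log2 ratio of 3.06 (2.79 to 3.38), which stood at percentile 99.2 of all genes kept. Its transcript had the lowest GC content of the members (41.0%), and genes of that composition and length had a trend of 1.63. The trend-removed log2 ratio was 1.42, the highest of the members and past 2-fold.

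*Tgfbr2* (Gene ID 21813, chr9:116087695-116175363), the type II receptor that binds the ligand, had 2002 counts with AAV-GFP and 1668 with AAV-*Wee1-AS*, or 12.8 and 12.6 TPM. The log2 ratio was 0.00 (-0.09 to 0.09), the narrowest interval among the members. Its trend-removed value was -0.62 with the longest protein-coding GENCODE transcript (GC content 49.6%). It was 0.39 with the transcript nearest in length to the deposited one (54.6%), an alternative added after the data were seen. The sign for *Tgfbr2* after trend removal therefore rested on the transcript used.

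*Tgfbr3* (Gene ID 21814, chr5:107106567-107289629), which encodes the coreceptor betaglycan, had 485 counts with AAV-GFP and 503 with AAV-*Wee1-AS*. Its level was 2.42 and 2.96 TPM. The log2 ratio was 0.31 (0.13 to 0.50), and the trend-removed log2 ratio was -0.29. *Tgfbr3* was thus higher before and lower after removal, and past 2-fold in neither.

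The receptor sum was 15.8 TPM in the AAV-GFP library and 20.5 TPM in the AAV-*Wee1-AS* library, and *Tgfbr1* accounted for 3.74% and 24.1% of it. The level of *Tgfbr2* was 21.7 times that of *Tgfbr1* in the AAV-GFP library and 2.55 times in the AAV-*Wee1-AS* library. The level of the ligand *Tgfb1* was 37.5 and 2.01 times that of *Tgfbr1*. These shares and ratios come from uncorrected levels, and *Tgfbr1* (41.0%) and *Tgfb1* (62.5%) lie at the ends of the members' GC range. The trend-removed log2 ratios were 1.42 for *Tgfbr1*, -0.36 for *Tgfb1* and -0.62 or 0.39 for *Tgfbr2*, depending on the transcript.

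Among the SMADs, *Smad4* (Gene ID 17128, chromosome 18), the common partner of the receptor-activated SMADs, had 911 counts with AAV-GFP and 1347 with AAV-*Wee1-AS*, or 3.64 and 6.34 TPM. Its log2 ratio was 0.83 (0.71 to 0.95), and the trend-removed log2 ratio was 0.69. *Smad4* was higher by both measures but past 2-fold by neither. The GC content and the length for the second measure came from a GENCODE transcript of 3384 bases, while the deposited transcript NM_008540 has 7614 bases. With the length trend alone removed, which used the deposited length, the log2 ratio was 0.06. The values 0.69 and 0.06 thus rest on different lengths.

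*Smad2* (Gene ID 17126, chromosome 18), a receptor-activated SMAD, had 579 counts with AAV-GFP and 934 with AAV-*Wee1-AS*. Its level was 2.00 and 3.81 TPM. The log2 ratio was 0.95 (0.80 to 1.11), close to 2-fold with an interval on both sides of it. The trend for genes of its composition (GC content 44.9%) and length was 1.33, and the trend-removed log2 ratio was -0.38. With the length trend alone removed, which used the length of the longest deposited transcript, it was 0.04.

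*Smad3* (Gene ID 17127, chr9:63646766-63757994), the other receptor-activated SMAD of this branch and the one that binds DNA directly in its main form, had 802 and 703 counts. Its level was 4.80 TPM in the AAV-GFP library and 4.94 TPM in the AAV-*Wee1-AS* library. The log2 ratio was 0.07 (-0.07 to 0.22), and the trend-removed log2 ratio was 0.17. The level of *Smad3* was 2.40 times that of *Smad2* in the AAV-GFP library and 1.30 times in the AAV-*Wee1-AS* library. With both trends removed, *Smad3* was higher (0.17) and *Smad2* lower (-0.38), which turns the direction of this change.

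*Smad7* (Gene ID 17131, chromosome 18), the inhibitory SMAD, had 357 counts with AAV-GFP and 204 with AAV-*Wee1-AS*, or 2.44 and 1.64 TPM. The log2 ratio was -0.54 (-0.80 to -0.29), and the trend-removed log2 ratio was -0.11. *Smad7* was lower but not past 2-fold. The SMAD sum was 12.9 TPM in the AAV-GFP library and 16.7 TPM in the AAV-*Wee1-AS* library. *Smad7* made up 18.9% and 9.81% of it. This sum and these shares come from uncorrected levels. With both trends removed, the log2 ratios of *Smad2*, *Smad3* and *Smad4* were -0.38, 0.17 and 0.69, and that of *Smad7* was -0.11.

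In the AAV-GFP library, the order of the levels in TPM was *Tgfb1*, *Tgfbr2*, *Smad3*, *Smad4*, *Smad7*, *Tgfbr3*, *Smad2*, *Tgfb3*, *Tgfbr1* and *Tgfb2*. The counting intervals of *Smad7* and *Tgfbr3* overlapped, and those of the other neighbours did not. In the AAV-*Wee1-AS* library, the order was *Tgfbr2*, *Tgfb1*, *Smad4*, *Smad3*, *Tgfbr1*, *Smad2*, *Tgfbr3*, *Smad7*, *Tgfb3* and *Tgfb2*, with overlap of *Smad3* and *Tgfbr1*. *Tgfbr1* thus moved from the ninth to the fifth place, and *Tgfb2* was the lowest in both libraries. These orders hold for uncorrected levels, and no order was computed with the trends removed. The trend-removed log2 ratios were 1.42 for *Tgfbr1* and -0.36 for *Tgfb1*. For *Smad2*, *Tgfbr3* and *Smad7* they were -0.38, -0.29 and -0.11, so the places in the AAV-*Wee1-AS* library may depend on the trends. All 10 members summed to 51.8 TPM and 47.5 TPM.

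**Figure D3:**
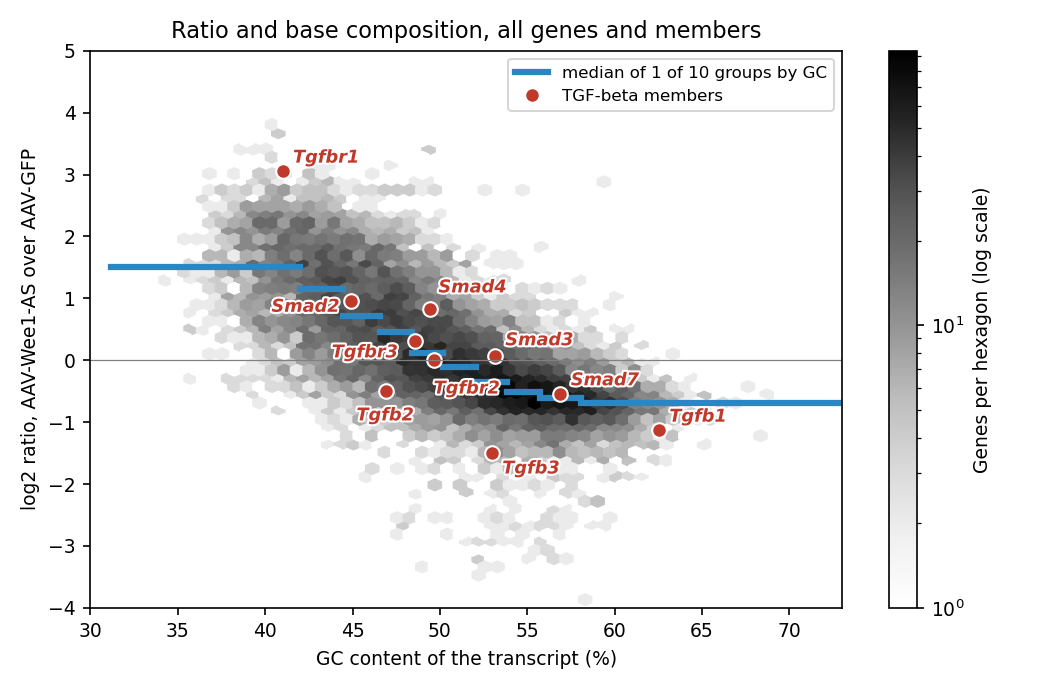
Log2 ratio of AAV-*Wee1-AS* over AAV-GFP against transcript GC content in percent, with all genes kept that had a GC value as grey hexagons (shade on a log scale), the median of each of 10 groups of genes by GC content as blue bars, and the members as red points. The medians run from 1.51 to -0.70, with *Tgfbr1* (41.0%) above and *Tgfb3* (53.0%) and *Tgfb2* (46.9%) below the group medians at their GC content.

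Over the 10 members, the log2 ratio and the GC content of the transcript had a Spearman coefficient of -0.76 and a Pearson coefficient of -0.77. These are given as a description of 10 genes that share both libraries. After removal of the trends, the Spearman coefficient over the members was -0.04. By then 3 members were higher and 7 lower, against 6 and 4 before, with *Tgfbr2* at 0.00 counted as higher. *Tgfbr3* and *Smad2* had changed sign, and *Tgfbr2* went from 0.00 to -0.62. With the transcript nearest in length, *Tgfbr2* was at 0.39 instead. The median of the members moved from 0.04 to -0.33.

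Transcripts of the same gene did not all follow their gene. The counts of *Smad2* were spread over more transcripts in the AAV-*Wee1-AS* library than in the AAV-GFP library. The curated transcript NM_010754 had 550 counts with AAV-GFP and 350 with AAV-*Wee1-AS*, and its share of the *Smad2* level in TPM was 95.1% and 37.6%. Over the same libraries, XM_017317842 had 18 and 223 counts, and NM_001311070 had 11 and 173. *Smad2* transcripts XM_030250351 and XM_006525699 were at 0 with AAV-GFP and had 97 and 84 counts with AAV-*Wee1-AS*. Counts are shared out between overlapping transcripts by estimation, so these shifts are shifts of assigned counts.

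For *Smad3*, XM_006510819 had 108 counts in the AAV-GFP library (13.8% of the level) and 0 in the AAV-*Wee1-AS* library, where NM_016769 took all 703 counts. For *Tgfbr2*, NM_009371 had 1061 and 873 counts and NM_029575 had 941 and 795, so both isoforms of the type II receptor held their shares, with 52.6% and 51.9% for the former. All counts of *Tgfbr1* lay on NM_001312868, of 5737 bases. The form NM_001312869, which begins at the internal start shown above, was at 0 in both libraries. *Smad4* counts lay almost wholly on NM_008540, with 890 and 1334.

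**Figure D4:**
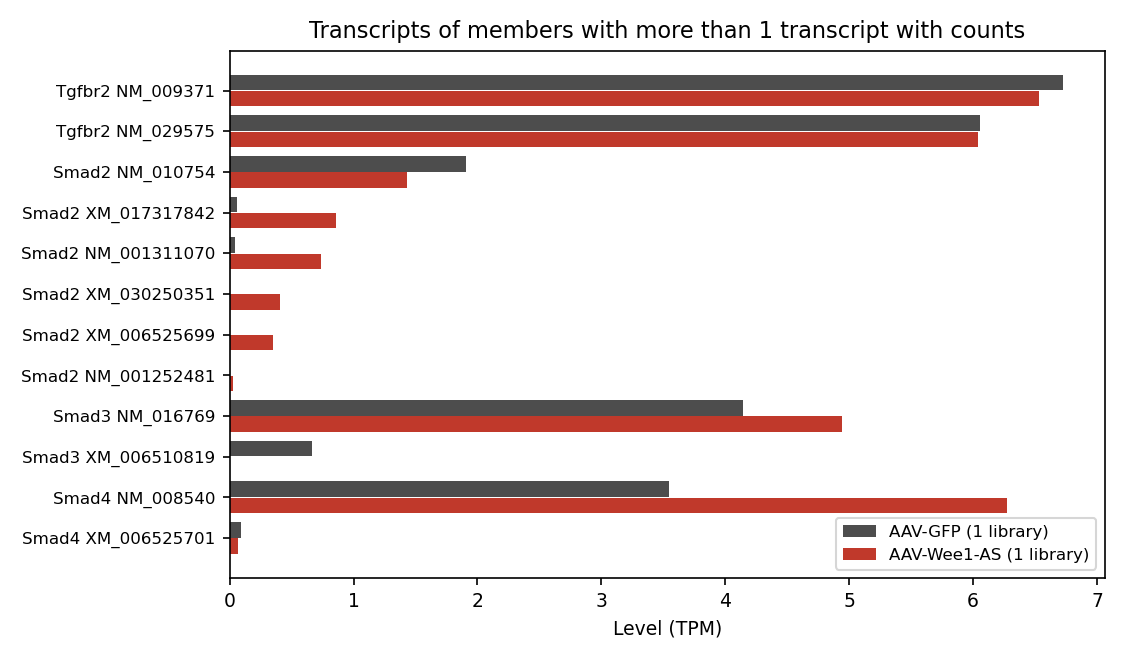
Level in TPM of each transcript of the members that had counts on more than 1 transcript (grey bars, AAV-GFP; red bars, AAV-*Wee1-AS*; 1 library each). Both *Tgfbr2* isoforms have bars of like length in the 2 libraries, whereas the *Smad2* level moves from NM_010754 (95.1% of the gene) to several transcripts.

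Genes that overlap the members on the genome held few counts. *Gm31292*, which overlaps *Tgfbr2*, had 6 counts with AAV-GFP and 0 with AAV-*Wee1-AS*, and *LOC115487224*, which overlaps *Smad3*, had 7 and 0. The other overlapping genes were at 0 in both libraries. The kit marks strand, but whether the counting used strand is not given in the sources used here.

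The genes around the core pathway were examined next, in 10 lists of 117 genes of which 108 were kept. Of these, 31 (28.7%) were above 2 and 18 (16.7%) were below 0.5, against 22.2% and 8.71% of all genes, and 59 were not past 2-fold. Their median log2 ratio was 0.00 and their trend-removed median was -0.04. After removal of the trends, 3 were above 2 and 11 below 0.5, when 6.64% and 8.11% of all genes were.

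Of 14 genes that store or activate latent TGF-beta, 1 was above 2 and 4 were below 0.5, and 12 had a log2 ratio below 0 (median -0.69). *Thbs1*, encoding thrombospondin 1, an activator of latent TGF-beta, had 308 counts with AAV-GFP and 83 with AAV-*Wee1-AS*, a log2 ratio of -1.61 and a trend-removed log2 ratio of -1.98. *Itgav*, the integrin alpha V chain that binds the latency peptide, was the gene above 2, with 306 and 790 counts and a log2 ratio of 1.63, but a trend-removed log2 ratio of 0.16. The other genes below 0.5 were the latent TGF-beta binding proteins *Ltbp2* (-1.57) and *Ltbp3* (-1.07) and the proteoglycan *Fmod* (-1.01). By mean level in TPM over both libraries, the highest genes of the list were *Furin*, which cleaves the ligand precursor, with a log2 ratio of -0.58, and the proteoglycan *Bgn*, with -0.80. The proteoglycan *Dcn*, with a log2 ratio of 0.33 and a trend-removed log2 ratio of -0.61, was above *Bgn* in the AAV-*Wee1-AS* library. After removal of the trends, the list had a median of -0.49, and *Thbs1* and *Ltbp2* were below 0.5.

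Of 8 coreceptors and receptor partners, 3 were above 2 and none was below 0.5 (median 0.59, trend-removed median -0.02). The 3 were *Zfyve16* (65 and 267 counts, log2 ratio 2.26, trend-removed 0.55), *Zfyve9*, which encodes the SMAD anchor SARA (543 and 1257 counts, 1.47, trend-removed 0.48), and *Strap*, a partner of SMAD7 (1.04). *Eng*, the endothelial coreceptor endoglin, had 7464 counts with AAV-GFP and 3298 with AAV-*Wee1-AS*, with a log2 ratio of -0.91 and a trend-removed log2 ratio of -0.35. *Hgs*, an endosomal adaptor, had a log2 ratio of -0.54. None of the 8 was past 2-fold after removal of the trends.

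Of 15 regulators of SMAD signaling, most of them inhibitors, 5 were above 2 and 2 were below 0.5 (median 0.34, trend-removed median -0.02). The list also held *Usp15* and *Rnf111* (log2 ratio 0.96), which are known to promote the pathway. Those above 2 were the corepressor *Skil* (71 and 285 counts, log2 ratio 2.23, trend-removed 0.48), the deubiquitinase *Usp15* (363 and 1395 counts, 2.20, trend-removed 0.32), the ubiquitin ligases *Wwp1* (2.13) and *Smurf2* (1.74), and *Trim33* (1.74). Those below 0.5 were the TGF-beta-induced inhibitor *Pmepa1* (227 and 87 counts, log2 ratio -1.10) and the corepressor *Tgif2* (61 and 19 counts, -1.34). By mean level in TPM over both libraries, the highest were the phosphatase *Ppm1a*, with a log2 ratio of 0.34 and a trend-removed log2 ratio of -1.13, and *Tgif1*, with -0.09, although in the AAV-*Wee1-AS* library *Wwp1* and *Smurf2* were above *Tgif1*. With both trends removed none of the 15 was above 2, and *Ppm1a* and *Nedd4l* (-1.11) were below 0.5.

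Of 10 nuclear cofactors of the SMADs, 4 were above 2 and 2 below 0.5 (median 0.77, trend-removed median -0.12). Those above 2 were the repressors *Zeb1* (250 and 724 counts, log2 ratio 1.79) and *Zeb2* (167 and 470 counts, 1.74), the factor *Sp1* (1.46) and the acetyltransferase *Ep300* (1.02). *Snai1* (80 and 23 counts, -1.46) and *Runx3* (26 and 7 counts, -1.41, interval -3.08 to -0.39) were below 0.5. Of 10 genes of SMAD-independent TGF-beta signaling, 7 were above 2 and none below 0.5 (median 1.50). Among these, the kinase *Rock1* had 149 and 741 counts and a log2 ratio of 2.56 (trend-removed 0.80), and *Tab3*, an adaptor of the kinase TAK1, had 52 and 253 counts and 2.50 (trend-removed 0.83). The more abundant *Rhoa*, a small GTPase, had a log2 ratio of -0.19 and *Mapk14*, the kinase p38 alpha, of 0.21. No gene of these lists was past 2-fold after removal of the trends, with a median of 0.34 for the SMAD-independent genes.

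Of 17 genes that TGF-beta is known to induce, 8 were below 0.5 and 2 above 2, 13 had a log2 ratio below 0, and the median was -0.96. *Ccn2*, the connective tissue growth factor gene, had 597 counts with AAV-GFP and 216 with AAV-*Wee1-AS*, a log2 ratio of -1.20 and a trend-removed log2 ratio of -1.28. *Tagln*, a smooth muscle and myofibroblast gene, had 780 and 106 counts (log2 ratio -2.60, trend-removed -2.16), and *Timp1*, an inhibitor of matrix metalloproteinases, had 160 and 24 (-2.39 and -1.88). *Acta2*, which encodes the smooth muscle actin of activated stellate cells, had 331 and 82 (-1.73 and -1.70). These 4 genes were past 2-fold by both measures.

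Other TGF-beta-induced genes differed from them. *Tgfbi*, an extracellular matrix gene named for its induction, had 5032 and 2833 counts, a log2 ratio of -0.56 and a trend-removed log2 ratio of -0.18. *Fn1*, encoding fibronectin, which hepatocytes also express, had 118250 and 113849 counts and a log2 ratio of 0.21. *Bhlhe40*, a transcription factor gene, had a log2 ratio of -0.15. The genes above 2 were *Skil*, which is also an inhibitor, and the matrix gene *Postn* (1.31), and neither was past 2-fold after removal of the trends. By then the list had a median of -0.72, with 6 genes below 0.5 and none above 2, against 8.11% and 6.64% of all genes.

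**Figure D5:**
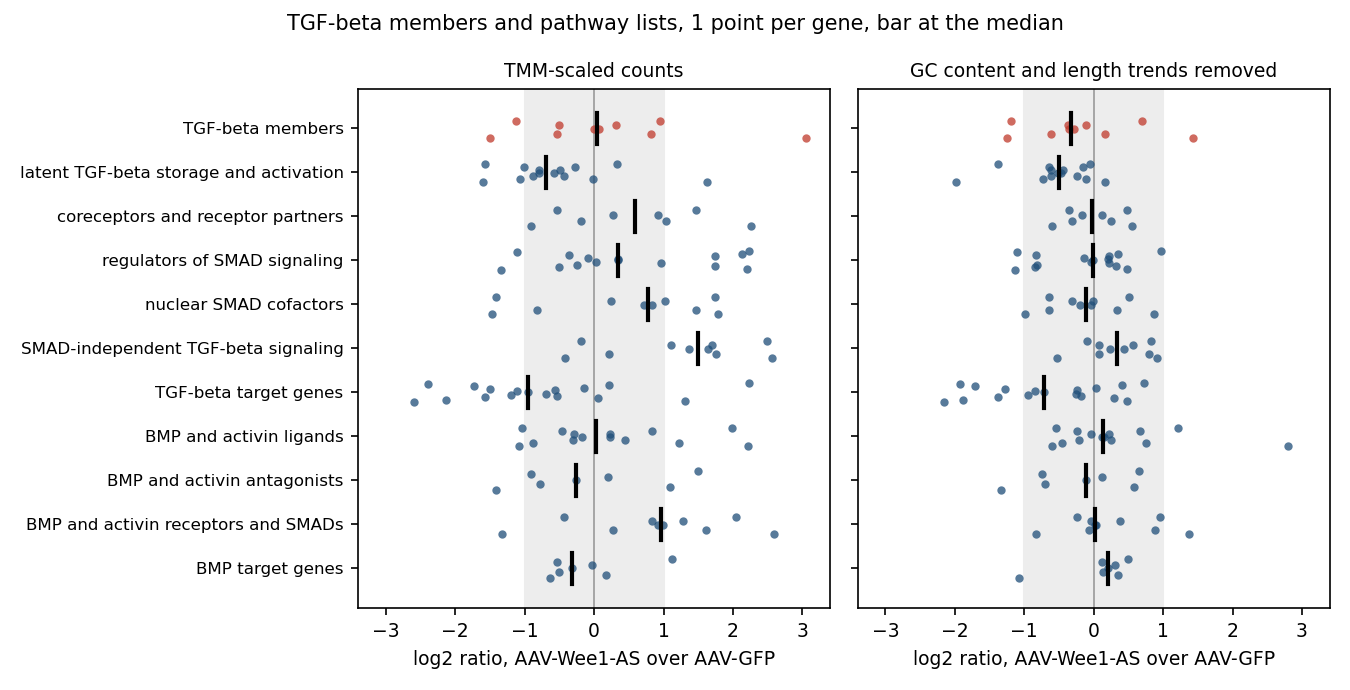
Log2 ratios of AAV-*Wee1-AS* over AAV-GFP for the members (red) and the pathway lists (blue), 1 point per gene with a bar at the median, from TMM-scaled counts (left) and after removal of the trends in GC content and length (right), with the range within 2-fold shaded. The median of the SMAD-independent genes moves from 1.50 to 0.34, and that of the TGF-beta target genes from -0.96 to -0.72.

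The bone morphogenetic protein (BMP) and activin branch, which uses related ligands and shares *Smad4*, was set beside the TGF-beta members. Of 14 ligands, 3 were above 2 and 2 below 0.5 (median 0.03, trend-removed median 0.13). The liver-enriched inhibin chains *Inhbc* and *Inhbe* were the most abundant, with log2 ratios of -0.28 and 0.22. *Bmp5* (74 and 292 counts) had a log2 ratio of 2.21 (trend-removed 0.76), and *Inhbb* (408 and 160 counts) of -1.08 (trend-removed -0.55). The others past 2-fold were *Inha* (1.99, interval 0.68 to 6.05, with 2 and 12 counts), *Inhba* (1.22, trend-removed -0.46) and *Gdf15* (-1.04, trend-removed -0.21). Of 10 receptors and SMADs of this branch, 4 were above 2 and 1 below 0.5 (median 0.96, trend-removed median 0.02). Like the type I receptor gene *Tgfbr1*, the BMP type I receptor gene *Bmpr1a* was above 2, with 201 and 1016 counts and a log2 ratio of 2.59, but its trend-removed log2 ratio was 0.96. The BMP type II receptor gene *Bmpr2* had 280 and 967 counts and a log2 ratio of 2.04, with a trend-removed log2 ratio of -0.04. *Acvr2a* (1.61) and *Smad5* (1.28) were also above 2, and *Acvrl1* (-1.33), the endothelial type I receptor, was below 0.5. The type I receptor genes *Acvr1* (0.27) and *Acvr1b* (-0.44), which had the highest mean level in TPM over both libraries, were within 2-fold, and in the AAV-*Wee1-AS* library *Bmpr1a* was the highest (6.53 TPM).

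Of 7 antagonists of BMPs and activins, 2 were above 2 and 1 was below 0.5 (median -0.26, trend-removed median -0.12). *Twsg1* had a log2 ratio of 1.50, and *Fstl1* (484 and 214 counts) had -0.91. *Fstl3* had only 26 and 7 counts, with a log2 ratio of -1.41 (-3.08 to -0.39) and a trend-removed log2 ratio of -0.70. Of 7 BMP target genes, 1 was above 2 and none below 0.5 (median -0.32, trend-removed median 0.20). This gene was *Id2*, an inhibitor of differentiation, with a log2 ratio of 1.13. *Hamp*, which encodes the iron hormone hepcidin and is induced by BMP6 in hepatocytes, had a log2 ratio of -0.03, and *Atoh8* of -0.64. After removal of the trends, *Inha* (2.80), *Acvr2b* (1.37) and *Bmp4* (1.22) were above 2, and *Fstl1* (-1.34) and *Id4* (-1.08) were below 0.5 in these lists.

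TGF-beta genes are expressed by several liver cell types, and in bulk RNA fewer cells of a type cannot be told apart from less RNA per cell. The labelled tissue was checked with marker genes. The hepatocyte list summed to 83705 TPM with AAV-GFP and 93965 TPM with AAV-*Wee1-AS*, with all 6 genes within 2-fold before removal of the trends and 1 below 0.5 after it (*Ttr*, -1.01), and medians of 0.10 and 0.02. The stellate cell list summed to 182 and 168 TPM, with 2 of 8 genes above 2 and 2 below 0.5, but none past 2-fold after removal of the trends (median -0.17 before and -0.36 after). Its defining gene *Lrat* had 267 and 617 counts (log2 ratio 1.46, trend-removed -0.03), and *Pdgfrb* had 1129 and 441 (-1.09 and -0.89). The sinusoidal endothelial list summed to 205 and 175 TPM, with all 8 genes within 2-fold before and after removal (median -0.18 and -0.34). The Kupffer cell list summed to 387 and 310 TPM, with 3 of 7 genes above 2 before and 1 after removal (median 0.09 and 0.15).

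The recruited myeloid list summed to 57.4 TPM in the AAV-GFP library and 30.7 TPM in the AAV-*Wee1-AS* library, with median log2 ratios of -0.65 before and -0.86 after removal of the trends. The gene *Cd68* supplied most of the sum (41.7 and 22.3 TPM), while *Ccr2* (0.68) and *Itgam* (0.29) had log2 ratios above 0. Below 0.5 were *Ly6c2* and *S100a9* before removal, and *Ccr2* and *S100a9* after it. The platelet list, of cells that store TGF-beta 1 and thrombospondin 1, summed to 5.66 and 3.08 TPM, and its 4 genes had log2 ratios below 0 and within 2-fold (median -0.76). With both trends removed the median was -0.38, with *Ppbp* below 0.5 (-1.59) and *Gp9* at 0.03. The counting intervals of *Ppbp* (21 and 11 counts, -1.87 to 0.45) and *Gp9* (14 and 6 counts, -2.63 to 0.51) held 0. The sum of every marker list except the hepatocyte list was lower in the AAV-*Wee1-AS* library. *Tgfb1*, *Tgfb3*, *Thbs1* and 13 of the 17 TGF-beta target genes were lower in the same library. The part of any cell type in those values was not tested. The cholangiocyte list summed to 44.1 and 37.9 TPM, with all 5 genes within 2-fold before removal and *Spp1* below 0.5 after it (-1.10), with medians of -0.18 and 0.08. The lymphocyte list summed to 5.81 and 4.97 TPM, with 2 of 6 genes above 2, 2 below 0.5 and *Ms4a1* at 0 in the AAV-GFP library (median -0.49, trend-removed median -0.29).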

How the data were processed

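Poly-A RNA of livers of HFD-fed mice was prepared with a TruSeq stranded kit and sequenced, with 1 library per group. A transcript table (RefSeq, mm10) was deposited by the authors with estimated counts, FPKM values, which are per kilobase and per library, and TPM values, which are per length with an equal sum in each library. The submitters' processing notes name Trimmomatic 0.38, HISAT2 2.1.0, SAMtools 1.9 and StringTie 2.1.3b without their roles. The deposited estimated counts were rounded up from FPKM times length and a constant of the library, and therefore depend on how overlapping transcripts share reads. Total counts were 55466182 (AAV-GFP) and 48079335 (AAV-*Wee1-AS*), which set the width of the counting intervals.

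Counts were summed per gene symbol, scaled with edgeR 4.0.16 (TMM factors 1.02 and 0.980; R 4.3.3) and compared as log2 ratios with a prior of 2 counts. A gene was kept if either library held 10 counts. Clopper-Pearson intervals (95%) were computed from the counts of both libraries. Levels are TPM values summed per gene. The GC content and length of 15101 genes (95.2%) came from the longest protein-coding GENCODE transcript, or the longest of any kind where none was coding. The trends with both were removed by lowess fits (span 0.3, 5 cycles, Python 3.11.15, statsmodels 0.14.6). Removal of the length trend alone used the length of the longest deposited transcript. The steps were tested on simulated data. Groups follow the sample titles, and no sample was left out.

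The members and all lists were chosen with earlier results of these data known. All members are named. Of each pathway list, the genes named are the 2 of highest mean TPM, the 2 of largest absolute log2 ratio where a library held 100 counts, and *Ccn2*, *Tgfbi*, *Pmepa1* and *Skil*. Some genes that this rule names are not reported here. Other list genes were named after their values had been seen. Alternatives were scaling by library totals, by DESeq2 1.42.0 size factors or by the upper quartile, no filter, a filter of 10 counts in both libraries, a prior of 0.5 counts, TPM or FPKM with a pseudocount of 1, curated transcripts only, the most abundant transcript alone, and removal of the length trend or of both trends. Removal of both trends with the transcript nearest in length was added after the data were seen.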

Additional observations from a re-analysis of the deposited data

How the results depend on the processing

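The difference rests on 1 library per group, so leaving out a replicate was not possible. No paired analysis was possible because each group has a single library and no test was run. Over 13 alternatives, the number of members past 2-fold was between 2 and 4 and their median log2 ratio was between -0.39 and 0.22. *Tgfbr1* was past 2-fold under all 13 (1.38 to 3.10) and *Tgfb1* under 11, the exceptions being removal of both trends (-0.36) and the same with the transcript nearest in length (-0.37). *Tgfb3* was past 2-fold under 11, the exceptions being TPM (-0.55) and FPKM (-0.35) with a pseudocount of 1. *Tgfb2* was past 2-fold only under the 3 settings that remove a trend and had no value with curated transcripts, which hold none of its counts.

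The log2 ratio of *Smad2* was -0.36 with its most abundant transcript alone, -0.38 with both trends removed and -0.46 with the transcript nearest in length, and it was 0.22 with curated transcripts only. That of *Tgfbr3* was -0.27 with the length trend removed, -0.29 with both removed and -0.35 with the transcript nearest in length. The number of all genes past 2-fold, 4908 as reported, was 2046 with TPM, 1336 with FPKM, 2228 with both trends removed and 2186 with the transcript nearest in length. The upper quartile shifted the median of all genes by -0.20 and split the genes past 2-fold into 56.8% higher and 43.2% lower, against 71.9% and 28.1% as reported. Under it *Tgfbr2* (-0.21) and *Smad3* (-0.13) had a log2 ratio below 0, as they did with the length trend removed (-0.40 and -0.38). *Tgfbr2* was also below 0 with both trends removed (-0.62) and, between -0.06 and -0.02, with library totals, DESeq2 size factors, TPM and FPKM. The length trend removed gave 0.06 for *Smad4* and 0.04 for *Smad2*, against 0.83 and 0.95 as reported. Both trends removed gave 45.0% higher and 55.0% lower, and the length trend removed gave 59.1% and 40.9%. The cause of these changes was not tested.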
